A study of Mus musculus with 30 samples.

Results

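Pmepa1, Skil, Ski, Smurf1, Smurf2 and Tgif1, 6 feedback regulators of TGFB signalling, were followed through every group of a mouse series on Smad4 and the colon. They were chosen by name as regulators of the pathway, but with earlier results of these data known. The counts of called regulators below are thus not those of a set chosen blind to these data. These regulators are 6 of the 13456 genes listed in at least 1 of the 7 deposited tables. All 6 stand in all 7 tables.

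TGFB and BMP ligands bind pairs of receptor kinases, which phosphorylate receptor SMADs. These join SMAD4, move to the nucleus and act on genes that include inhibitors of the same pathway, so that a signal limits itself. In the intestine the pathway restrains epithelial growth and shapes the crypt. Pmepa1 encodes a membrane protein that keeps receptor SMADs from the receptor and recruits ubiquitin ligases. Ski and Skil (also called SnoN) encode related nuclear proteins that bind SMADs and bring co-repressors to SMAD target genes. Smurf1 and Smurf2 encode related HECT ubiquitin ligases that act on SMADs and receptors. Tgif1 encodes a homeodomain protein that acts as a SMAD co-repressor.

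Sequencing of mRNA gave 30 libraries, 3 in each of 10 groups, in 3 systems. The series design lists 3 experiments: reads were 51 bases single-end in experiment 1 and 75 bases paired-end in experiments 2 and 3. One system was colon epithelium of C57BL/6J mice, comparing animals named Smad4+ (control) with animals named Smad4ΔLrig1 (Smad4 knockout). Lrig1, which the name of these animals includes, is a marker of intestinal stem cells. No source used here gives the Cre construct, its induction, the age of the mice or whether animals were pooled. Another system was cultured colonocytes labelled IMCfl/fl Smad4+, all carrying that genotype, in 4 groups: no ligand, TNF, TGFB1 with BMP2, and all 3 ligands. For these cells no source used here gives doses, treatment times or what separates the replicates, and p-values then measure the spread between these libraries, which may be technical. The last system was colonoids, which are organoids of colon epithelium, of lines L42, L43 and L46. Each line received vehicle only, TNF at 100 ng/mL, a pair of ligands (BMP2 at 10 ng/mL and TGFB1 at 3 ng/mL) or all 3 together. TNF, a cytokine of inflammation, is known for switching on NF-kB. TGFB1 and BMP2 were always given together, so their effects cannot be told apart.

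Colon libraries held 23.2 to 28.6 M reads over listed genes (M, 1e6), recovered from the deposited values. The range was 21.6 to 42.9 M for colonocyte and 42.2 to 61.7 M for colonoid libraries. Smad4 itself stood at 46.1 to 59.2 CPM (reads of a gene per library size, as deposited) in the 3 knockout libraries and at 132 to 152 CPM in the 3 controls, so knockout epithelium kept Smad4 reads. Of 11 epithelial markers, all 11 were listed in colon and in colonoids. In the libraries labelled colonocytes 7 of 11 were in no table, among them Epcam, Vil1, Krt20 and Cdx2. Those present in all 3 colonocyte tables (Krt8, Krt18 and Krt19) summed to 27.0 to 46.9 CPM. The same libraries listed 11 of 12 mesenchymal markers, at a summed 14400 to 15500 CPM. The label colonocytes therefore goes against these markers, and the name is used below only as the label.

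The genes lie apart in the genome (mm10, GENCODE). Pmepa1 is at chr2:173224458-173276533 on the minus strand, Skil at chr3:31095058-31122577 on the plus strand and Ski at chr4:155154075-155222592 on the minus strand. Smurf1 is at chr5:144876495-144965847, Smurf2 at chr11:106820066-106920715 and Tgif1 at chr17:70844205-70853546, all on the minus strand. All 6 are protein-coding, and none has exons that overlap an exon on the opposite strand. A miRNA gene, Gm27322, overlaps an exon of Smurf2 on the same strand.

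The sequences just upstream of the gene starts are shown where the RefSeq table (build GRCm38.p6) held them. These are 4 of the 6 genes (Ski, Smurf1, Smurf2 and Tgif1). Whether these sequences bear on any response was not tested. Each is read 5′ to 3′ on the strand of the gene and ends where the start or an annotated untranslated exon begins. Capitals mark GTCT or its reverse complement AGAC, the core letters of the SMAD binding element.
Smurf1, chr5:144965848-144966080, minus strand: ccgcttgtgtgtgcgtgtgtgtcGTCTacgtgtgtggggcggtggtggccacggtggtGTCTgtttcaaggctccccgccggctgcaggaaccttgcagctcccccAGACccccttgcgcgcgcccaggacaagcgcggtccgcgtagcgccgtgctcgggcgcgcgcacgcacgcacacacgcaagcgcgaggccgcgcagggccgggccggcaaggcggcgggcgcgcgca
Smurf2, chr11:106920716-106920965, minus strand: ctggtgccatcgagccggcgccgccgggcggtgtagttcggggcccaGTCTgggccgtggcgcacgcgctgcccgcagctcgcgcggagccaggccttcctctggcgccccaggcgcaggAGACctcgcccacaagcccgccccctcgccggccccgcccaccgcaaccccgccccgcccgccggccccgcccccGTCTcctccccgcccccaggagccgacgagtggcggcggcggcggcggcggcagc
Tgif1, chr17:70853547-70853782, minus strand: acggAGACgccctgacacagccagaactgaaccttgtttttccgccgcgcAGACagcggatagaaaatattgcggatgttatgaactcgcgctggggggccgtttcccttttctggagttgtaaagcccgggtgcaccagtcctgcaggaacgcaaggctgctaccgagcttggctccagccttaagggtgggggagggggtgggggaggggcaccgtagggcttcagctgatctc
Ski, chr4:155222593-155222785, minus strand: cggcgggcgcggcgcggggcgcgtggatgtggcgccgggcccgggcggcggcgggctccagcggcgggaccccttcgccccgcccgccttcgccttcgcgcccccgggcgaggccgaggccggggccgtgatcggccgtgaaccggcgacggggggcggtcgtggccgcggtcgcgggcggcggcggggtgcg

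In the full window of 250 bases before the start, Smurf1 and Smurf2 each held 3 matches to GTCT on either strand. The first of the 5 Tgif1 starts in the table, the one shown, held 2, the other 4 starts held 0 to 4, and Ski held 0. These 4 letters occur in 82.9% of the 32851 promoters of the same length, with a median of 2 matches, so a match is common. The GC-rich letters GGCGC (or GCGCC), another sequence SMADs are known to bind, were found 7 times upstream of Ski, 6 times upstream of Smurf2, 4 times upstream of Smurf1 and 0 times upstream of this Tgif1 start. They occur in 32% of promoters. The windows of Ski and Smurf2 were 87.6% and 82.0% G or C, that of Smurf1 74.8% and that of Tgif1 59.6%. The share of promoters with a lower G or C content was 100% (rounded) for Ski and 99.3% for Smurf2. It was 95.8% for Smurf1 and 71.1% for this Tgif1 start. The counts of GGCGC were not compared with promoters of like content.

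In colon epithelium of the Smad4 knockout, Pmepa1 and Skil were more than doubled, Tgif1, Ski and Smurf2 were moderately higher, and Smurf1 was not called. Of the 6 genes, 5 rose in the knockout and none fell, where 19.8% of the 11607 genes tested rose. The same 5 had every knockout library above every control, which held for 25% of all genes. A gene was called at a Benjamini-Hochberg adjusted p under 0.05 by limma on log2(CPM + 1). The median change of the 6 was 0.42 on that log2 scale, beside 0.002 over all genes.

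Pmepa1 stood at 47.8, 41.3 and 34.3 CPM in the 3 knockout libraries and at 16, 15.7 and 15.4 CPM in the controls. Every knockout library was above every control. The means were 41.1 ± 6.73 and 15.7 ± 0.304 CPM (SD, n = 3), a log2 change of 1.32 (SE 0.13, limma adjusted p = 0.000196). Only 83 of 11607 genes, counting Pmepa1, changed upward by as much or more.

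Among the nuclear co-repressors, Skil stood at 99.9, 112 and 107 CPM in the knockout and 55.2, 45.5 and 47.1 CPM in the control, again with no overlap. Its log2 change was 1.1 (SE 0.11, limma adjusted p = 0.000169), from 49.3 ± 5.21 to 107 ± 6.34 CPM (SD, n = 3). Its relative Ski rose less, from 70.5 ± 1.15 to 91.6 ± 9.24 CPM (SD, n = 3), a log2 change of 0.37 (limma adjusted p = 0.0179). Tgif1 stood at 70.8, 74.5 and 60.9 CPM against 47.0, 50.4 and 51.0 CPM, a log2 change of 0.46 (limma adjusted p = 0.0081).

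Of the paired ligases, Smurf2 was called in the knockout and Smurf1 was not. Smurf2 stood at 82.0, 87.2 and 81.9 CPM against 57.5, 69.0 and 73.8 CPM, a log2 change of 0.33 (95% interval 0.08 to 0.58, limma adjusted p = 0.0406). Smurf1 stood at 39.9, 33.0 and 31.8 CPM against 32.5, 33.8 and 31.5 CPM, so the groups overlapped. Its log2 change was 0.09 (95% interval -0.18 to 0.35, limma adjusted p = 0.584). Whether the change of Smurf2 differed from that of Smurf1 was not tested.

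Leaving out knockout replicate 2 or control replicate 2 reduced the count from 5 to 3, with Pmepa1, Skil and Tgif1 called both times. Without knockout replicate 3 or control replicate 1 Smurf2 was not called (limma adjusted p = 0.057 and 0.106), nor was Ski without control replicate 3 (adjusted p = 0.0608). In these bulk samples a change in the share of a cell type and a change of RNA per cell cannot be told apart. The 11 epithelial markers summed to 12000 to 14700 CPM in the knockout and 16000 to 17000 CPM in the control, with 1 marker called higher (Cdh1) and 4 lower (Cldn3, Lgals4, Cdx2 and Krt8). Krt19 was at 173 CPM in knockout replicate 1, against 2240 and 2670 CPM in the other knockout libraries and 2520 to 3610 CPM in the controls. Without knockout replicate 1 the count of regulators was again 5. The 5 leukocyte markers listed summed to 43.4 to 56.9 CPM against 47.3 to 63.5 CPM, with 1, Coro1a, called lower. The 3 mesenchymal markers listed summed to 18.1 to 21.6 CPM against 25.8 to 28.1 CPM, with 1, Vim, called lower. The part of cell composition in the result was not tested.

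**Figure D1:**
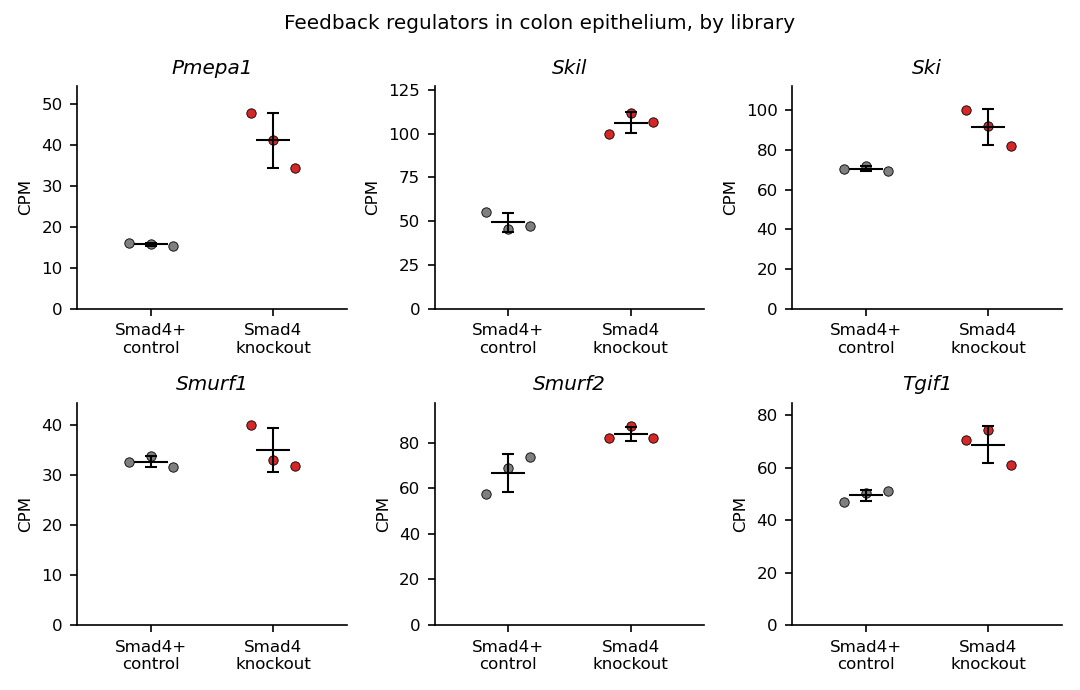
CPM of the 6 regulators in colon epithelium (vertical axis from 0, 1 panel per gene). Points are libraries, the horizontal bar is the mean and the whisker 1 SD (n = 3). The knockout libraries lie above all controls for every gene but Smurf1, whose groups overlap.

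Other inhibitors of the pathway were called in both directions in the knockout. Of 26 further negative regulators 22 were tested, with 6 called higher, 5 lower and a median log2 change of -0.09, where 19.8% of all genes were called higher and 19.9% lower. Smad7, the inhibitory SMAD that brings Smurf ligases to receptors, fell by 0.84 on the log2 scale, from 33.8 ± 2.35 to 18.5 ± 1.64 CPM (SD, n = 3, limma adjusted p = 0.000766). Smad6, the inhibitory SMAD known mainly for BMP signals, fell by 1.58 on the log2 scale, from 20.2 to 6.18 CPM. Ldlrad4, a relative of Pmepa1, rose by 0.71, and Rnf111, a ubiquitin ligase known to act on Ski, Skil and Smad7, rose by 0.42.

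Of 10 direct target genes tested, 1 was called higher and 7 lower, with a median log2 change of -1.17, beside the same 19.9% of all genes lower. The BMP targets Id3, Id1 and Id2 changed by -4.81, -2.15 and -1.59. Among 8 receptors tested, 3 rose (Bmpr2 by 0.76, Acvr1 by 0.49 and Bmpr1a by 0.40) and none fell. Of the 3 ligand genes tested Bmp2 rose by 0.74, Bmp7 changed by -0.77 and Tgfb1 was at 0.16, not called. The 9 co-repressors known to bind SKI proteins held 1 called higher (Ncor1, 0.53) and 1 lower (Hdac1, -0.35).

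In the colonocytes, TGFB1 with BMP2 raised all 6 regulators, from 1.39 times for Ski to 3.82 times for Pmepa1. In that comparison 15.9% of 11620 genes rose and 14.3% fell by limma, or 10.6% and 24.9% when libraries were scaled by total listed reads alone. The median log2 change of the 6 was 0.97, beside -0.0033 over all genes. Added to cells that also had TNF, the same ligands raised all 6 again, where 16.4% of 11567 genes rose and 15.6% fell (10.9% and 26.5% by total listed reads), with a median of 0.89. In both comparisons every library with the ligands was above every library without for all 6 genes, as it was for 22.3% and 22.9% of all genes. The 2 comparisons share no library. Of 11 mesenchymal markers tested in the first, 3 were called higher and 2 lower, and their sum was 14400 to 14800 CPM without ligand and 14800 to 15400 CPM with it. Of 3 epithelial markers tested Krt8 was called higher and Krt19 lower, and of 4 endothelial markers Kdr alone was tested, at 3.09 to 4.5 CPM without ligand and 19.9 to 20.7 CPM with it, called higher. The part of these markers in the regulators' change was not tested.

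Pmepa1 stood at 234, 225 and 259 CPM without ligand and at 973, 887 and 885 CPM with TGFB1 and BMP2, a log2 change of 1.93 (SE 0.06, limma adjusted p = 1.23e-10). In the presence of TNF it went from 227, 230 and 257 CPM to 900, 865 and 819 CPM, a log2 change of 1.85 (SE 0.05, limma adjusted p = 4.46e-10). It ranked 24th from the highest change of 11620 genes in the first comparison and 27th of 11567 in the second.

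Skil was at 74.2, 76.5 and 84.4 CPM without ligand and at 167, 172 and 165 CPM with TGFB1 and BMP2, a log2 change of 1.09 (SE 0.06, limma adjusted p = 1.08e-08). Ski, per kilobase the most abundant of the nuclear repressors in these cells, went from 376 ± 6.81 to 521 ± 26.1 CPM (SD, n = 3), a log2 change of 0.47. Tgif1, the least abundant per kilobase, was at 33.0, 31.3 and 32.9 CPM without ligand and 67.0, 62.8 and 69.7 CPM with it, a log2 change of 1.02 (limma adjusted p = 5.52e-08).

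Smurf1 went from 113, 112 and 127 CPM to 219, 220 and 234 CPM, a log2 change of 0.93, and Smurf2 from 111, 111 and 123 CPM to 188, 204 and 182 CPM, a log2 change of 0.73. Per kilobase both ligases stood at like levels without ligand, 18.3 and 18.5 CPM per kb, and both rose. With TNF present the log2 changes were 0.81 for Smurf1 and 0.71 for Smurf2. The 95% intervals of the 2 genes, 0.81 to 1.06 and 0.60 to 0.85 without TNF, overlapped, and their difference was not tested.

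TNF alone moved 3 of the 6 regulators in colonocytes, and not in 1 direction. Tgif1 and Smurf1 rose, Ski fell, and Pmepa1, Skil and Smurf2 were not called, where 6.28% of 11586 genes were called, 4.61% higher and 1.67% lower (3.81% and 2.55% by total listed reads). Tgif1 went from 33.5, 31.8 and 33.6 CPM to 45.2, 45.4 and 48.0 CPM, a log2 change of 0.48 (SE 0.06, limma adjusted p = 0.000433). Smurf1 went from 114, 114 and 130 CPM to 154, 156 and 175 CPM, a log2 change of 0.44 (limma adjusted p = 0.00162). Ski went from 389, 384 and 376 CPM to 300, 310 and 302 CPM, a log2 change of -0.33 (SE 0.04, limma adjusted p = 0.000286). For these 3 genes the groups did not overlap, which held for 23.6% of all genes in either direction.

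The log2 changes of the other 3 with TNF were 0.03 for Pmepa1 (95% interval -0.11 to 0.16), 0.05 for Skil (-0.09 to 0.20) and 0.05 for Smurf2 (-0.09 to 0.20). Scaled by total listed reads alone, the change of Pmepa1 was -0.0091, also not called. Of 25 other negative regulators tested with TNF, 1 rose (Ldlrad4, 0.43) and 3 fell (Cxxc5, Smad6 and Tob1, by 0.35 to 0.38 on the log2 scale). Of all genes 6.28% were called in either direction. Smad7 was at 0.01, not called. The target Junb rose by 1.46 and the receptor SMAD gene Smad3 by 0.47.

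The same 3 genes were called when TNF was added to cells that already had TGFB1 and BMP2, where 4.13% of 11434 genes were called, 3.07% higher and 1.06% lower (2.59% and 1.57% by total listed reads). This contrast and the next used all 12 colonocyte libraries joined on recovered reads. Tgif1 went from 66.0 ± 3.29 to 89.2 ± 3.88 CPM (SD, n = 3), Smurf1 from 222 ± 7.25 to 276 ± 8.30 CPM and Ski from 517 ± 27.8 to 431 ± 12.4 CPM. The log2 changes were 0.43, 0.31 and -0.26. The groups set against each other in the 2 TNF comparisons share no library. The second fit took its scaling and spread from all 12 libraries, so the 2 fits are not independent.

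With all 3 ligands against none, all 6 rose, where 23.5% of genes rose and 20.7% fell (13.5% and 36.7% by total listed reads, with the median of all genes at -0.11). Tgif1 reached 2.79 times and Smurf1 2.38 times its level without ligand. Ski reached 1.16 times, a log2 change of 0.21 (95% interval 0.12 to 0.30, limma adjusted p = 0.000722). Scaled by total listed reads alone, the change of Ski was 0.10 and was no longer called (limma adjusted p = 0.0596).

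The interaction test, for a change of the TGFB1 and BMP2 effect in the presence of TNF, called 0 of the 6 in colonocytes, and 1 of 11434 genes (0.00875%). At an unadjusted p under 0.05 limma gave 0 of 6, and edgeR and DESeq2 also called 0. The interaction estimates ran from -0.13 for Smurf1 (95% interval -0.30 to 0.04) to 0.07 for Ski (-0.06 to 0.20), on the log2 scale. The order of the Smurf1 and Tgif1 levels was the same: none, TNF, TGFB1 with BMP2, then all 3 ligands, with no overlap between neighbours. For Ski the order was TNF, none, all 3, then TGFB1 with BMP2, again with no overlap between neighbours. For Pmepa1, Skil and Smurf2 the groups with and without TNF overlapped.

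**Figure D2:**
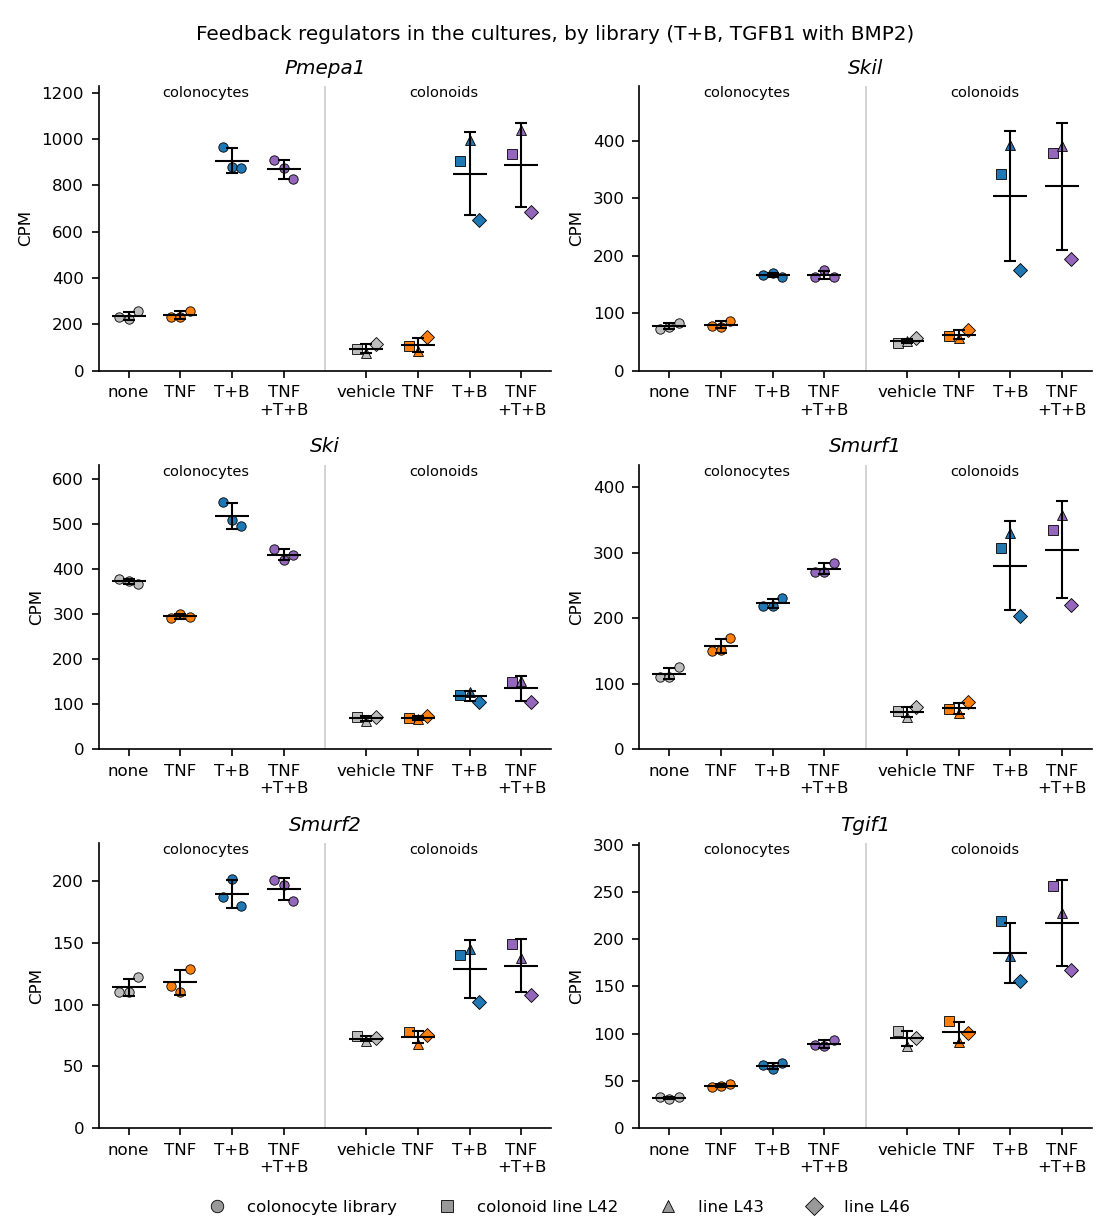
CPM of the 6 regulators in the culture groups (vertical axis from 0, 1 panel per gene), colonocytes left and colonoids right, each system scaled on its own. Points are libraries, bars the mean and whiskers 1 SD (n = 3). Smurf1 and Tgif1 step upward through the 4 colonocyte groups, Ski is lower with TNF, and line L46 (diamonds) is the lowest of the 3 lines given TGFB1 with BMP2 in every panel.

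Within the wider pathway, colonocytes given TGFB1 and BMP2 had 10 of 25 other negative regulators called higher and 2 lower, with a median log2 change of 0.03. In that comparison 15.9% of 11620 genes rose, and the like share that fell is given above. Both shares are also the background for the targets and receptors below. Smad7 rose by 1.98, Smad6 by 1.39 and Ldlrad4 by 1.21, while Tgif2, the relative of Tgif1, was at -0.10 and not called. Of 14 direct targets 9 rose and 2 fell, with a median of 0.75. Snai1 rose by 2.88 and Ltbp2 by 2.11. Among 11 receptors 4 rose and 2 fell, with Acvr1 at 1.07 and Tgfbr2 at -0.64.

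In colonoids, TGFB1 with BMP2 raised all 6 regulators as well, by 1.72 times for Ski to 8.97 times for Pmepa1. In that comparison 28% of 11633 genes rose and 28.7% fell, or 17.1% and 43.2% when libraries were scaled by total listed reads alone. That scaling moved the median log2 change of all genes from -0.02 to -0.28, and under it the 6 changes ran from 0.50 to 2.87 and all stayed called. The median change of the 6 was 1.59. Added to TNF, the ligands again raised all 6, where 26.4% of 11595 genes rose and 27.7% fell (16.5% and 42.1% by total listed reads), with a median of 1.64. All 6 had every library with the ligands above every library without in both comparisons, as did 33.5% and 32.2% of all genes.

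Pmepa1 went from 92.4, 77.6 and 115 CPM in lines L42, L43 and L46 to 906, 999 and 655 CPM, a log2 change of 3.15 (SE 0.20, limma adjusted p = 0.000974). Line L46 had the highest level with vehicle and the lowest with the ligands. Here and in the colonoid results below, SEs and intervals come from a fit that leaves out the line. They do not measure how the change varied between lines, which is described further below. With the line as a replicate block all 6 regulators were called as well. Only 56 of 11633 genes, counting Pmepa1, rose by as much or more.

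Skil went from 48.4, 52.0 and 56.5 CPM to 344, 392 and 176 CPM, a log2 change of 2.44 (SE 0.29, limma adjusted p = 0.00193). The ligand level of Skil in L46 was far below those of the other 2 lines. Ski went from 71.6, 62.1 and 72.2 CPM to 121, 127 and 106 CPM, a log2 change of 0.77 (limma adjusted p = 0.00262). Tgif1 went from 103, 87.2 and 96.3 CPM to 219, 182 and 156 CPM, a log2 change of 0.94 (limma adjusted p = 0.00308).

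Smurf1 went from 58.4, 49.3 and 64.8 CPM to 308, 330 and 203 CPM, a log2 change of 2.24 (SE 0.20, limma adjusted p = 0.00111). Smurf2 went from 73.9, 70.8 and 73.0 CPM to 141, 145 and 102 CPM, a log2 change of 0.81 (SE 0.14, limma adjusted p = 0.00501). Per kilobase Smurf2 was the higher of the pair with vehicle (11.5 to 12.1 against 7.76 to 10.2 CPM per kb) and the lower with TGFB1 and BMP2 (16.6 to 23.5 against 32.0 to 52.1 CPM per kb). Their 95% intervals, 1.76 to 2.72 for Smurf1 and 0.47 to 1.15 for Smurf2, did not overlap, and the difference between the genes itself was not tested.

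With TNF present the log2 changes were 2.97 for Pmepa1, 2.27 for Skil, 2.22 for Smurf1, 1.05 for Tgif1, 0.90 for Ski and 0.81 for Smurf2. All 6 were called (limma adjusted p = 0.00134 to 0.00506). Against vehicle, all 3 ligands raised all 6, where 31.2% of 11413 genes rose and 32.9% fell (18.8% and 47.2% by total listed reads), with Pmepa1 at 3.2 and Smurf1 at 2.36.

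**Figure D3:**
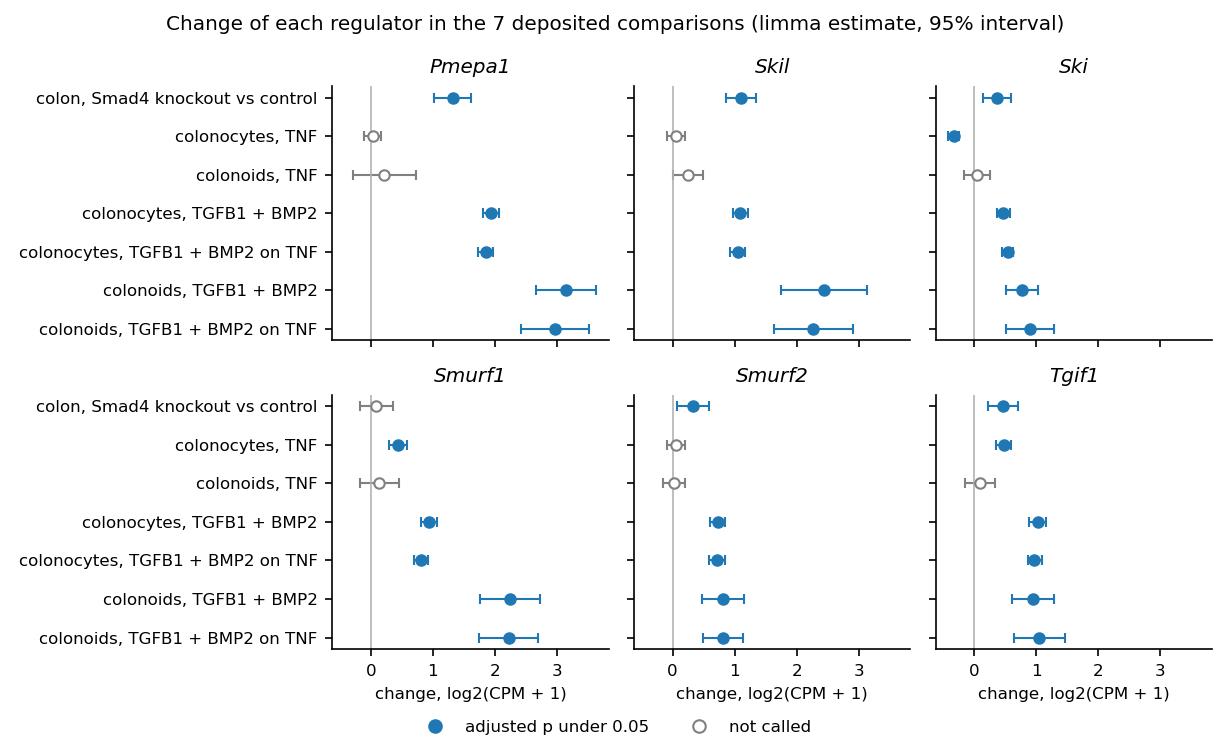
Log2 change of each regulator (limma estimate on log2(CPM + 1), horizontal axis) in the 7 deposited comparisons, with the 95% interval. Filled points have an adjusted p under 0.05. All 24 points of the comparisons with TGFB1 and BMP2 are filled and above 0, and the colonoid points of Pmepa1, Skil and Smurf1 lie farthest to the right.

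The size of the response differed between the lines. Line L46 had the smallest change of the 3 lines for 6 of 6 regulators, both without and with TNF. Within L42 and L43 Pmepa1 changed by 3.28 and 3.67 on the log2 scale, and within L46 by 2.5. For Skil the values were 2.81, 2.89 and 1.62, and for Smurf1 2.38, 2.72 and 1.63. The smaller change in L46 was not particular to these genes: over all genes called higher the median changes were 0.80, 0.91 and 0.52 in L42, L43 and L46. Without L46 all 6 genes stayed called in both comparisons. All 11 epithelial markers were listed in each colonoid group, and their sum rose from 9800 to 11800 CPM with vehicle to 26300 to 35400 CPM with TGFB1 and BMP2, 10 of 11 being called higher. Of the 12 mesenchymal markers 2 were listed in all 3 colonoid tables, Fn1 and Pdgfrb, and they went opposite ways. Fn1 went from 18.9 to 68.9 CPM with vehicle to 216 to 1300 CPM with the ligands, and Pdgfrb from 3.9 to 5.44 CPM to 0.22 to 1.24 CPM. Of 4 mesenchymal markers tested in that comparison, 3 were called higher and 1 lower. The part of these shifts in the regulators' change was not tested.

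**Figure D4:**
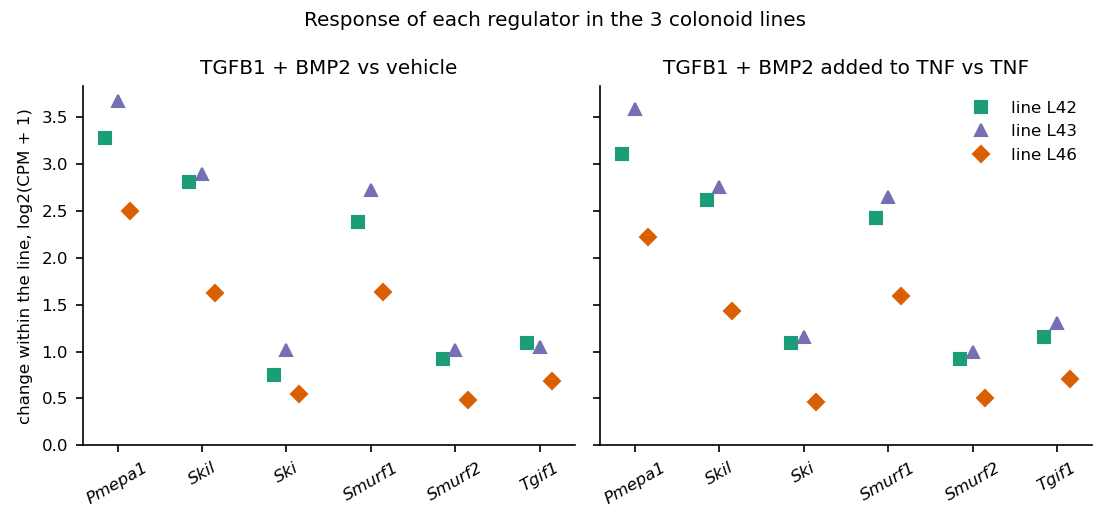
Log2 change of each regulator within each colonoid line (vertical axis from 0, log2(CPM + 1)), without TNF left and with TNF right. Each point is the difference of 2 libraries of 1 line. Line L46 is the lowest of the 3 points for every gene in both panels, and all points are above 0.

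TNF alone called none of the 6 in colonoids by limma, where 0.137% of 11688 genes were called. At an unadjusted p under 0.05, 1 of the 6 (Skil) passed, and edgeR and DESeq2 called 0. The share of all genes at that unadjusted threshold was not counted, here or in the other comparisons. Skil went from 53.6, 56.7 and 61.9 CPM to 66.0, 61.8 and 77.9 CPM in L42, L43 and L46, a rise within every line, while the groups overlapped between L46 with vehicle and L43 with TNF. Its log2 change was 0.25 (95% interval 0.0022 to 0.49, limma adjusted p = 1). With the line as a replicate block, which compares each line with itself, the change was the same and Skil alone was called, 1 of 6 (limma adjusted p = 0.0429). That fit called 718 of 11688 genes, 6.14%. Pmepa1 was at 0.22 (95% interval -0.29 to 0.73), Smurf1 at 0.13 (-0.18 to 0.45) and Tgif1 at 0.09 (-0.15 to 0.34). These 3 genes too were higher with TNF in each of the 3 lines.

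TNF added to TGFB1 and BMP2 called 0 of the 6 in colonoids, where 0.175% of 11413 genes were called, with 0 at an unadjusted limma p under 0.05 and 0 by edgeR and DESeq2. With the line as a replicate block it was also 0 of the 6, and 2.23% of all genes. The estimates ran from 0.03 for Smurf2 (95% interval -0.29 to 0.35) to 0.22 for Tgif1 (-0.15 to 0.59). These intervals leave out the line, so differences between lines widen them. Within the lines, Smurf1 changed by 0.13, 0.12 and 0.12 in L42, L43 and L46. Pmepa1, Smurf1 and Tgif1 were higher with TNF in every line, while Skil and Smurf2 were lower in L43 and Ski in L46. The interaction of TNF with TGFB1 and BMP2 called 0 of the 6 by limma, 0 at an unadjusted p under 0.05 and 0 by edgeR and DESeq2, and 0% of all genes. Its intervals, from a fit that leaves out the line, were wide, as for Skil (-1.12 to 0.82). With the line as a replicate block 0 of the 6 were called as well, and the share of all genes in that fit is not given here.

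Other negative regulators moved in the same comparison. Of 24 tested in colonoids given TGFB1 and BMP2, 13 rose and 4 fell, with a median log2 change of 0.50. In that comparison 28% of 11633 genes rose, and the like share that fell is given above. Both shares are also the background for the co-repressors, receptors and targets below. Smad7 rose by 3.4, Ldlrad4 by 2.73, Smad6 by 1.81 and Rnf111 by 0.81, while Tgif2 changed by -1.15. The log2 change of Tgif1 in that comparison was 0.94, so these related repressors were called in opposite directions. Of 9 SKI-binding co-repressors 4 rose, among them Hipk2 at 1.01, and 2 fell. Of 8 receptors 4 rose and none fell, among them Acvr1 at 2.26, and 7 of 11 direct targets rose, with Ctgf at 2.23.

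The effect of TGFB1 and BMP2 itself was compared between colonoids and colonocytes over all 24 culture libraries. Pmepa1, Skil and Smurf1 rose more in colonoids, and no call was made for Ski, Smurf2 or Tgif1. The background is high: 57.5% of 10160 genes differed, 28.4% with a higher change in colonoids and 29.2% with a lower one (19.5% and 38.6% by total listed reads, which moved the median of all genes to -0.18). The difference of log2 changes was 1.22 for Pmepa1 (SE 0.26, limma adjusted p = 0.000677), 1.35 for Skil (SE 0.33, limma adjusted p = 0.00214) and 1.31 for Smurf1 (SE 0.24, limma adjusted p = 0.000187). This fit too leaves out the colonoid line.

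For Ski the difference was 0.31 (limma adjusted p = 0.0807). edgeR did not call it either. DESeq2 did, at 0.35 (adjusted p = 0.0437), and so did limma without the L46 library given TGFB1 and BMP2, at 0.38 (adjusted p = 0.0342). For Smurf2 it was 0.08 (95% interval -0.26 to 0.42, and -0.1 by total listed reads) and for Tgif1 -0.07 (-0.44 to 0.30). The data are compatible with differences within those intervals. The systems differ in cells and read depth, and perhaps in dose, time and sequencing experiment, and these cannot be told apart here. For the TNF effect, limma called 0 of 6 between the systems, where 0.384% of genes were called. This fit took the spread of a gene from all 24 culture libraries, those given TGFB1 and BMP2 included, and left out the line. The SE for Tgif1 was 0.18, against 0.06 with TNF in colonocytes alone and 0.1 in colonoids alone. The lack of a call thus does not show equal effects. Ski and Tgif1 passed an unadjusted limma p under 0.05 (differences of 0.38 and -0.38), and edgeR and DESeq2 called 0. The share of all genes at that unadjusted threshold was not counted, so these passes have no background.

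Before any ligand the 6 genes were ordered differently in the 3 systems. Exon length here joins all annotated exons of a gene (5.62 kb for Tgif1, 9.69 kb for Skil). It can exceed the length of any single transcript, and every order per kilobase depends on it. Per kilobase of exon, Ski was the highest of the 6 in control colon at 12.7 ± 0.206 CPM per kb (SD, n = 3), ahead of Smurf2 at 10.8 ± 1.36 and Tgif1 at 8.80 ± 0.387. Smurf1 and Skil, at 5.15 and 5.08 CPM per kb, overlapped, and Pmepa1 was the lowest at 3.20 ± 0.062. In the knockout the order was Ski, Smurf2, Tgif1, Skil, Pmepa1 and Smurf1, so Smurf1 took the last place from Pmepa1, with overlap between Tgif1 and Skil only.

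In colonocytes without ligand the order was Ski at 66.9, Pmepa1 at 48.2, Smurf2 at 18.5, Smurf1 at 18.3, Skil at 7.99 and Tgif1 at 5.69 CPM per kb, with overlap between the 2 ligases. In colonoids with vehicle it was Pmepa1 at 19.3, Tgif1 at 16.9, Ski at 12.3, Smurf2 at 11.8, Smurf1 at 9.07 and Skil at 5.39. There Pmepa1 overlapped Tgif1 and Ski overlapped Smurf2. Tgif1 was thus last in colonocytes and second in colonoids. Under TGFB1 and BMP2, Pmepa1 was first in both systems, at 185 ± 10.7 CPM per kb in colonocytes and 173 ± 36.3 in colonoids (SD, n = 3). Smurf1 moved from the fifth place to the second in colonoids, at 44.1 ± 10.7 CPM per kb, where its libraries overlapped those of Tgif1 and Skil. The systems were normalized separately, so orders are compared and not levels.

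When all 24 culture libraries were scaled together, Ski stood at 388 ± 6.55 CPM in colonocytes without ligand and 76.8 ± 6.34 CPM in colonoids with vehicle (SD, n = 3). Tgif1 showed the opposite, at 33.4 ± 1.03 and 107 ± 8.83 CPM. Pmepa1 stood at 247 ± 18.1 and 106 ± 20.8 CPM without ligands, and at 937 ± 50.9 and 950 ± 199 CPM with TGFB1 and BMP2. Its ranges with the ligands overlapped between the systems. The systems differ here too in cells and read depth, and perhaps in sequencing experiment, and the part of each was not tested.

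The genes whose pattern over the 8 culture groups was most like each regulator were found by the root mean square difference of group means of log2(CPM + 1), centred within each system, among 10160 genes. This likeness is a description with no test, and it was sought for the 4 regulators whose means spanned more than 1. For Pmepa1 the nearest was Smad7, at a distance of 0.09, then F3, Sphk1 and Sdc3 at 0.19 to 0.21. In the colon knockout, where both were measured again, Pmepa1 rose and Smad7 fell, as given above. For Skil the nearest were Acvr1, at 0.05, Slc6a8, Elk3, Furin and Epb4.1l1. For Smurf1 they were Il4ra, at 0.09, Tmcc3, Rnf19b, Spire1 and Epb4.1l1. For Tgif1 they were Igfbp7, at 0.07, Nabp1, Msantd3, Clic4 and Cnnm4. Among the regulators themselves, Skil and Smurf1 lay 0.15 apart, as did Ski and Smurf2, while Pmepa1 and Ski lay 0.93 apart. The equal distances are not equal likeness. Smurf1 was the 14th nearest gene to Skil and Skil the 10th nearest to Smurf1. Ski and Smurf2, whose means spanned 0.93 and 0.82, were each only the 111th nearest to the other.

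**Figure D5:**
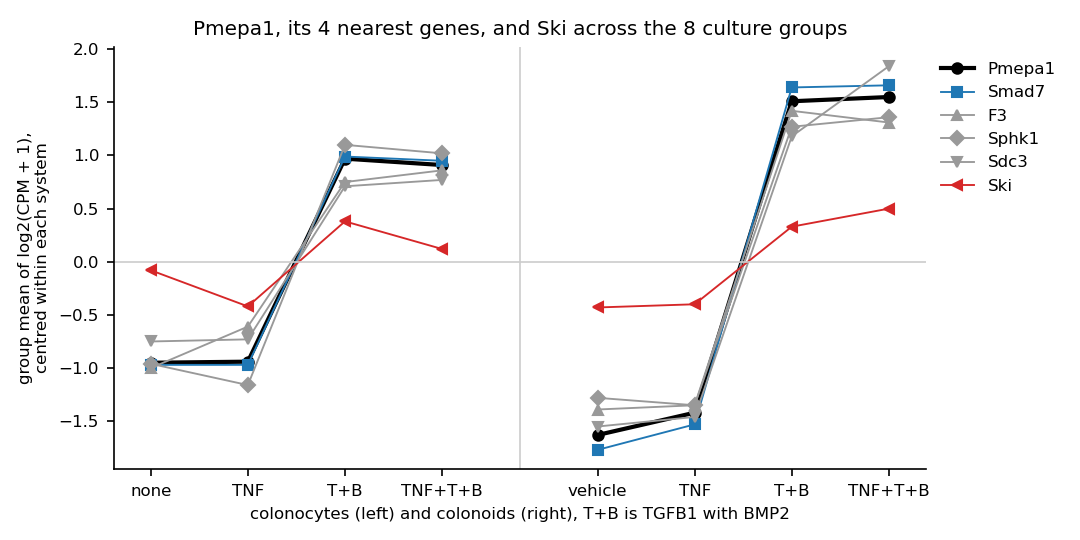
Group means of log2(CPM + 1), centred within each culture system (vertical axis), for Pmepa1 (thick black), its 4 nearest genes and Ski (red) over the 8 culture groups. Smad7 (blue) lies closest to Pmepa1, at a distance of 0.09, and Ski spans 0.93 in all.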

How the data were processed

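Each of the 7 tables the authors deposited sets 2 groups of 3 libraries against each other. Per the file headers, the library columns are CPM, a signal scaled to library size in each table on its own. Beside them stand log2 fold changes, average log2 CPM, p-values and FDR as the authors deposited them. Per the submitters' processing notes, the build was mm10, and edgeR 3.4.2, HTSeq 0.5.4p5, SAMtools 1.3.1, TopHat2 2.1.0, bcl2fastq 2.16 and CASAVA were named, in no stated order. No source used here gives the strand setting of the counting. In the authors' deposited tables, FDR was under 0.05 for 5 of the 6 regulators in the knockout, 3, 6 and 6 in colonocytes (TNF, TGFB1 with BMP2, and these on TNF) and 0, 6 and 6 in colonoids.

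The main test was limma 3.58.1 in R 4.3.3 (eBayes with trend, two-sided) on log2(CPM + 1), within each table of 6 libraries, over genes whose mean CPM was 1 or more, with Benjamini-Hochberg adjustment over all genes and a threshold of 0.05. Changes on this scale understate those of low genes. All deposited CPM values (100%) lay within 0.05 of a whole number of reads once divided by the worth of 1 read, so reads were recovered for every library. Contrasts across tables used these reads, TMM scaled over the 12 libraries of a system or all 24, with the same test, and edgeR 4.0.16 and DESeq2 1.42.0 on them were alternatives. All 6 regulators passed the filter in every comparison, and 15 comparisons were made. The limma test within a table was tried on simulated reads of a treated and an untreated group, with no line effect. That trial does not cover the contrasts across tables or the spread between colonoid lines.

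Groups follow the titles of the samples. The labels tie colonoid libraries to lines: deviations from the group mean correlated at 0.271 to 0.94 within a line, over 18 pairs, so the colonoid fit with the line as a block is given where it changes a call. The members and lists were chosen with earlier results of these data known. Named pathway genes were up to 4 of each list with the smallest adjusted p, with Smad7, Smad6, Tgif2, Ldlrad4 and Rnf111. Some genes that this rule or the likeness rule picked are not reported here. Promoters are from RefSeq, gene positions and exon lengths from GENCODE.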

Additional observations from a re-analysis of the deposited data

Results flagged for a closer look

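The response to TGFB1 with BMP2 differed between colonoids and colonocytes for 3 of the 6 regulators, by a test of the difference itself over 24 libraries. The log2 change in colonoids exceeded that in colonocytes by 1.22 for Pmepa1 (95% interval 0.69 to 1.75), 1.35 for Skil (0.66 to 2.04) and 1.31 for Smurf1 (0.82 to 1.81). Of all 10160 genes 28.4% differed in that direction, so these 3 differences stand among many. The intervals come from a fit that leaves out the colonoid line.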

How the results depend on the processing

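Of 96 counts of called regulators recomputed under other settings, 95 were within 1.5 times the reported count, and of 576 single changes 567 kept their direction and their side of the threshold. With the line as a replicate block the colonoid TNF count went from 0 to 1 (Skil), and that of all genes from 16 to 718. With the replicate number as a block, 2356 genes were called in place of 728 for TNF in colonocytes and 998 in place of 472 for TNF on TGFB1 with BMP2. There the same numbers are not tied to a shared source by the labels, same-numbered libraries correlated at 0.049 to 0.526, and no count of regulators changed. In colon they correlated at -0.00611 to 0.123, and the block left the count at 5. Changes near 0 turned direction in 6 cases: Pmepa1 with TNF in colonocytes was -0.0091 and the Smurf2 difference between systems -0.1 with total-read scaling. Skil with TNF on TGFB1 and BMP2 in colonocytes was 3.2e-05 and the colonoid Smurf2 interaction -0.0027 with DESeq2. Without L46 (chosen after seeing the data) Smurf2 with TNF on TGFB1 and BMP2 was -0.0018 and its interaction -0.01.

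Leaving out each library in turn gave 3 to 5 called regulators in the knockout, and 112 of 114 counts stayed within 1.5 times. No called change turned direction. The changes that did, none of them called, ranged as follows. In colon, Smurf1 was -0.01 to 0.15. With TNF in colonocytes, Pmepa1 was -0.03 to 0.08, Skil -0.0039 to 0.11 and Smurf2 -0.01 to 0.1. With TNF on TGFB1 and BMP2 there, Skil was -0.03 to 0.02 and Smurf2 -0.0078 to 0.08. The colonocyte interaction was -0.11 to 0.004 for Skil and -0.07 to 0.04 for Smurf2. With TNF in colonoids, Ski was -0.03 to 0.08 and Smurf2 -0.02 to 0.08. With TNF on TGFB1 and BMP2 there, Pmepa1 was -0.12 to 0.23, Skil -0.26 to 0.42, Smurf1 -0.09 to 0.34 and Smurf2 -0.13 to 0.17. The colonoid interaction was -0.35 to 0.05 for Pmepa1, -0.5 to 0.17 for Skil, -0.22 to 0.21 for Smurf1, -0.15 to 0.15 for Smurf2 and -0.0044 to 0.3 for Tgif1. Between systems, the TGFB1 and BMP2 effect was -0.0026 to 0.24 for Smurf2 and -0.19 to 0.05 for Tgif1, and the TNF effect -0.003 to 0.38 for Pmepa1 and -0.07 to 0.04 for Smurf2. The cause of these shifts was not tested. The lowest group mean of the 6 was 15.7 CPM (Pmepa1 in control colon), and what limit depth or the number of libraries set was not tested.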
